A study of Arabidopsis thaliana with 14 samples.

Results

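The effect of the ibm1-1 mutation on the transcriptome was compared between plants grown in soil and seedlings grown in sterile medium. For every gene counted in both experiments, the log2 change from Col-0 to ibm1-1 in medium was subtracted from the same change in soil, and this value is called the difference below. A positive difference means that ibm1-1 raised the mRNA more, or lowered it less, in soil than in medium, and a negative difference means the opposite. Both count tables held 21912 genes of the 33602 in either table, and 20192 of them passed the filter on low counts and were tested. Col-0 is the wild type of Arabidopsis thaliana, and ibm1-1 is a point mutant of INCREASE IN BONSAI METHYLATION 1 in the same background. The soil experiment held 3 Col-0 and 3 ibm1-1 libraries from plants kept for 5 days on plates and then 10 days in non-sterile soil, given as 2 weeks of age. The medium experiment held 2 Col-0 and 2 ibm1-1 libraries from seedlings 7 days old on sterile Murashige and Skoog medium. Whole plants were harvested in both, and no further treatment is given. Age, growth condition, exposure to soil microbes and, by the study's methods, read processing all changed together between the experiments, so their parts in any difference cannot be told apart. A change in whole plants also cannot tell fewer cells of a type from less RNA per cell.

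IBM1 is a jumonji-domain histone demethylase that removes methylation of histone H3 lysine 9 from the bodies of transcribed genes and so keeps non-CG DNA methylation out of them. Plants with too little of it accumulate DNA methylation in genes and show changes in leaf, flower and defense traits. A difference of effects, the interaction of genotype with growth condition, is a way to separate genes that move in the mutant wherever it grows from genes whose move depends on where or at what age the plant was sampled. Many of the genes below belong to pathways that plants switch by nutrient supply, temperature, wounding or development, among them iron and phosphate uptake, cold acclimation, seed storage and the remodelling of the cell wall.

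The 10 libraries held 18260809 to 27001069 counted reads. Reads of organelle genes made 0.0245 to 0.0284% of the soil totals and 1.05 to 1.94% of the medium totals. The biological coefficient of variation was 0.0390 in soil and 0.106 in medium, so the medium libraries set most of the error of a difference. IBM1 itself had 27.04, 27.3 and 25.8 CPM in soil Col-0 and 19.2, 20.4 and 20.4 in soil ibm1-1, and 23.8 and 25.9 in medium Col-0 and 16.3 and 16.3 in medium ibm1-1. It was lower in every ibm1-1 library than in any Col-0 library of the same experiment, and its difference of 0.18 ± 0.13 (limma, adjusted p = 0.406) did not pass. Root markers (11 of 12 genes counted, none at 0) summed to 45.5 to 50.8 CPM in the soil libraries, 128 to 142 in medium Col-0 and 103 to 118 in medium ibm1-1. Stomatal lineage markers (6 genes) summed to 48.6 to 49.3 CPM in soil Col-0, 38.5 to 41.6 in soil ibm1-1, 78.6 to 85.3 in medium Col-0 and 33.6 to 43.2 in medium ibm1-1. Floral markers (4 of 5 genes counted) summed to 6.10 to 6.89 CPM in soil Col-0, 2.64 to 3.34 in soil ibm1-1, 1.73 to 2.26 in medium Col-0 and 7.25 to 7.45 in medium ibm1-1. The part that unequal shares of roots, epidermis or flower buds had in the results below was not tested. All levels are CPM, read counts scaled to a common library size, after TMM scaling over the 10 libraries, which are not divided by gene length and are compared only within a gene.

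A gene was counted as higher or lower when limma gave a Benjamini-Hochberg adjusted p below 0.05 and a difference beyond 1 on the log2 scale. This held for 511 genes on the higher side (2.53% of those tested) and 644 on the lower side (3.19%), together 5.72%. The median difference over all genes tested was 0.01. Scaling by library size alone, without TMM, moved the median by 0.148 and gave 756 higher and 519 lower genes, or 59.3% on the higher side against 44.2% with TMM. The genotype effects in soil and medium correlated across genes with a Pearson r of 0.545 and a Spearman rho of 0.383, which is a description, since genes are not independent replicates.

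**Figure D1:**
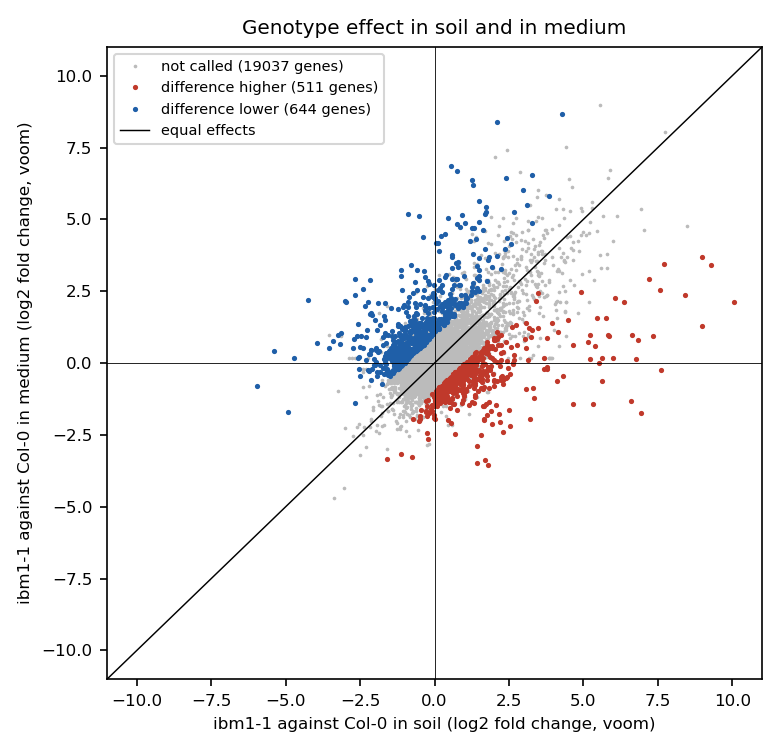
Log2 change from Col-0 to ibm1-1 in soil (horizontal axis) and in medium (vertical axis) for the 20192 genes tested, each point 1 gene. The 511 genes with a higher effect in soil lie below the diagonal in red. The 644 with a lower effect lie above it in blue, and the others are grey.

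Each experiment alone, tested with edgeR (adjusted p below 0.05 and more than a 2-fold change), showed where the 1155 genes came from. Genotype groups that stood apart were common, since 57.1% of genes in soil and 61.7% in medium had all ibm1-1 libraries on 1 side of all Col-0 libraries. In soil 5.87% of the genes tested rose and 2.39% fell in ibm1-1, and in medium 5.53% rose and 1.53% fell. Of the 511 higher genes, 219 were changed in soil alone, 77 in medium alone, 19 in opposite directions in the 2 experiments and 14 in the same direction, and 182 passed in neither. Of the 644 lower genes, 199 were changed in soil alone, 221 in medium alone, 26 in opposite directions and 52 in the same direction, and 146 passed in neither. The lower genes thus included 297 that rose in medium and 227 that fell in soil. Jasmonate and touch genes, which were set aside here, made 21 of the 644 lower genes (3.26%) and 0 of the 511 higher genes. They made 1.82% of all counted genes, although those lists held only 36 and 11 of the 20192 genes tested. These shares count list members only. Genes tied to jasmonate that were not listed, such as ORA59 and CYP94C1 below, are left out of them, so the full jasmonate and touch share was not measured. A further 34 higher and 18 lower genes had at most 3 counts in 1 of the 4 groups, and the fitted size of their difference depends on the prior count.

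Pathway lists were counted beside the share of all genes tested, of which 2.53% were higher and 3.19% lower. Of the 16 iron deficiency genes tested, 10 were higher and 0 lower, with a median difference of 1.41, and of 13 seed storage and oil body genes 12 were higher, with a median of 6.06. A filter at a mean of 1 CPM in each experiment left 6 iron genes and 0 seed genes counted as higher. On the other side stood 6 of 10 phosphate starvation genes (median -1.17), 7 of 13 cold and abscisic acid response genes (median -1.39), 4 of 6 sugar starvation genes (median -1.26) and 9 of 20 rapid stress transcription factors and regulators (median -0.81), none of which had a higher member. The set-aside jasmonate and touch lists had 16 of 36 and 5 of 11 members lower, with medians of -1.32 and -0.74. The salicylic acid list was split, with 2 of 20 higher and 4 lower and a median of -0.15. No member of the 13 aliphatic glucosinolate genes or of the 11 root markers was counted in either direction, with medians of 0.31 and 0.35.

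**Figure D2:**
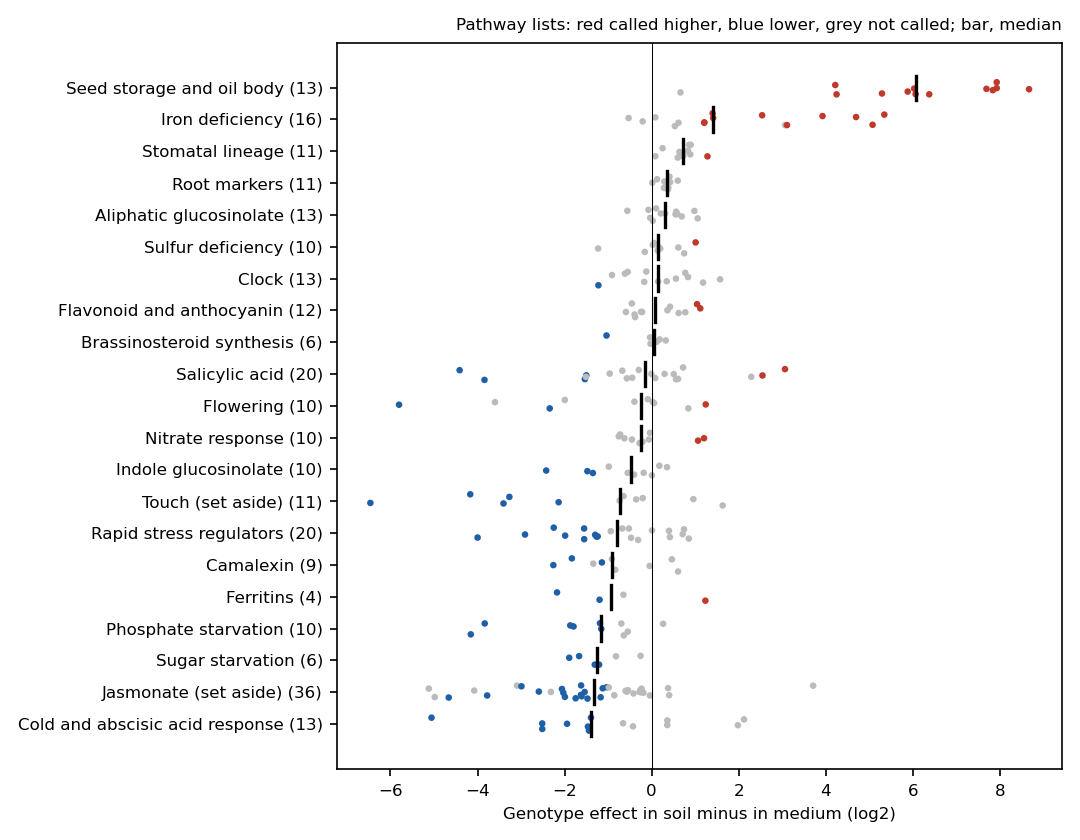
Difference of the ibm1-1 effect, soil minus medium, on the log2 scale for each tested gene of the pathway lists, with each list's median as a bar. Seed storage genes (12 of 13 higher) and iron genes (10 of 16 higher) sit to the right, and phosphate (6 of 10 lower) and cold genes (7 of 13 lower) to the left of 0.

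Arabidopsis takes up iron by a reduction strategy: FRO2, the ferric chelate reductase of the root surface, makes ferrous iron, and IRT1, the high-affinity transporter, carries it in. Ferritins store iron in plastids and rise when iron is plentiful. In soil 8 of the 16 iron deficiency genes rose in ibm1-1 and none fell, while in medium 2 rose and 5 fell. The summed root markers given above were also lower in medium ibm1-1 than in medium Col-0, by less, and close together in soil, and their part in the iron values was not tested. IRT1 (AT4G19690, chromosome 4, 10707344 to 10709015) had 4.25, 4.07 and 3.51 CPM in soil Col-0 and 12.2, 12.03 and 12.2 in soil ibm1-1, and 8.74 and 4.48 in medium Col-0 and 3.05 and 1.57 in medium ibm1-1. Its soil ibm1-1 libraries were all above every soil Col-0 library, its medium ibm1-1 libraries were both below medium Col-0, and the difference was 3.11 ± 0.37 (limma, adjusted p = 3.38e-06). FRO2 (AT1G01580, chromosome 1, 208995 to 213082) had 5.70, 4.94 and 4.91 CPM in soil Col-0 and 13.4, 14.3 and 12.7 in soil ibm1-1, and 3.26 and 1.61 in medium Col-0 and 1.25 and 0.787 in medium ibm1-1. Expression rose in soil, did not pass in medium although both ibm1-1 libraries were the lower ones, and differed by 2.54 ± 0.46 (limma, adjusted p = 4.22e-04). CYP82C4 (AT4G31940, chromosome 4, 15451988 to 15454224), a cytochrome P450 of the iron response that hydroxylates coumarins, had 1.04, 1.03 and 1.14 CPM in soil Col-0 and 5.03, 5.15 and 4.44 in soil ibm1-1, with at most 0.816 CPM in any medium library. Its difference was 3.92 ± 0.74 (limma, adjusted p = 6.45e-04).

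The largest iron-list differences belonged to genes that the annotation leaves uncharacterized. AT1G47400 (chromosome 1, 17385707 to 17386485) had 0.281, 0.163 and 0.132 CPM in soil Col-0 and 0.810, 0.577 and 0.623 in soil ibm1-1, and 8.16 and 12 in medium Col-0 and 1.55 and 0.420 in medium ibm1-1. The soil level rose from a very low base and the medium level fell, where neither ibm1-1 library reached a Col-0 library, with a difference of 5.34 ± 0.64 (limma, adjusted p = 3.38e-06). Its neighbour AT1G47395 (chromosome 1, 17382998 to 17383830) showed 0.120, 0.217 and 0.219 CPM in soil Col-0 and 1.15, 0.989 and 0.747 in soil ibm1-1, and 9.46 and 10.5 in medium Col-0 and 2.50 and 1.36 in medium ibm1-1. The direction was the same as for AT1G47400 in all 4 groups, with a difference of 4.69 ± 0.48 (limma, adjusted p = 4.94e-07). AT2G30766 (chromosome 2, 13107583 to 13110480) had 0.0401, 0.326 and 0.132 CPM in soil Col-0 and 0.427, 0.659 and 0.374 in soil ibm1-1, and 54.4 and 64.4 in medium Col-0 and 7.00 and 4.57 in medium ibm1-1. It fell in medium, was too low in soil to be tested there (0.0401 to 0.659 CPM), and differed by 5.07 ± 0.57 (limma, adjusted p = 1.51e-06). The gene overlaps AT2G30760 and AT2G30770 on the other strand. AT2G30770 is CYP71A13, which rose in both experiments.

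Iron distribution genes moved less. OPT3 (AT4G16370, chromosome 4, 9247302 to 9250343), an oligopeptide transporter of the phloem that takes part in shoot-to-root iron signalling, had 69.6, 69.1 and 60.9 CPM in soil Col-0 and 108, 117 and 113 in soil ibm1-1, and 161 and 169.9 in medium Col-0 and 114 and 127 in medium ibm1-1. Soil ibm1-1 was above soil Col-0 and medium ibm1-1 below medium Col-0 in every library, with a difference of 1.21 ± 0.12 (limma, adjusted p = 2.02e-07), although neither experiment alone passed the 2-fold threshold. Nicotianamine synthases make the metal chelator nicotianamine. NAS4 (AT1G56430, chromosome 1, 21136835 to 21138277) fell in medium and gave 1.40, and NAS2 (AT5G56080) rose in both experiments and gave 1.41. NAS1 (AT5G04950) also rose in both and its difference did not pass (0.08 ± 0.15, limma, adjusted p = 0.76), and its sign turned to -0.10 without medium Col-0 replicate 1 and -0.04 without medium ibm1-1 replicate 2. PYE (AT3G47640), a bHLH factor of the iron response, differed by 1.21, and left the threshold without medium Col-0 replicate 2 (0.975) and without medium ibm1-1 replicate 1 (0.931). FRU (AT2G28160), the bHLH factor that drives IRT1 and FRO2 and is also known as FIT, had 3.89, 4.13 and 4.04 CPM in soil Col-0 and 5.63, 6.10 and 5.31 in soil ibm1-1, and 10.7 and 11.6 in medium Col-0 and 10.4 and 11.2 in medium ibm1-1. Its difference of 0.53 ± 0.19 (limma, adjusted p = 0.0594) did not pass, and neither did that of BTS (AT3G18290), a ubiquitin ligase that restrains the iron response (0.62 ± 0.13, limma, adjusted p = 0.00242).

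Ferritins went the other way for their most abundant members. FER1 (AT5G01600, chromosome 5, 227953 to 230051), the main leaf ferritin, had 65.6, 68.1 and 62.7 CPM in soil Col-0 and 52.3, 53.2 and 51.3 in soil ibm1-1, and 112 and 134 in medium Col-0 and 475 and 408 in medium ibm1-1. It rose in medium ibm1-1, where both libraries were far above Col-0, and was slightly lower in every soil ibm1-1 library, so that the difference was -2.17 ± 0.11 (limma, adjusted p = 4.21e-11). FER4 (AT2G40300) followed with 72.5, 75.2 and 75.0 CPM in soil Col-0 and 59.2, 55.7 and 62.4 in soil ibm1-1, and 36.2 and 30.1 in medium Col-0 and 61.6 and 59.2 in medium ibm1-1. Its difference was -1.20 ± 0.12 (limma, adjusted p = 3.91e-07). FER3 (AT3G56090) had a difference of -0.65, short of the threshold of 1. FER2 (AT3G11050), the ferritin of seeds, was higher by 1.23 (adjusted p = 0.0415), a call that was lost when any of 5 libraries was left out (0.831 to 1.15). In medium ibm1-1, IRT1 and NAS4 thus fell while FER1 rose, and of the whole iron deficiency list 5 genes fell and 2 rose there.

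**Figure D3:**
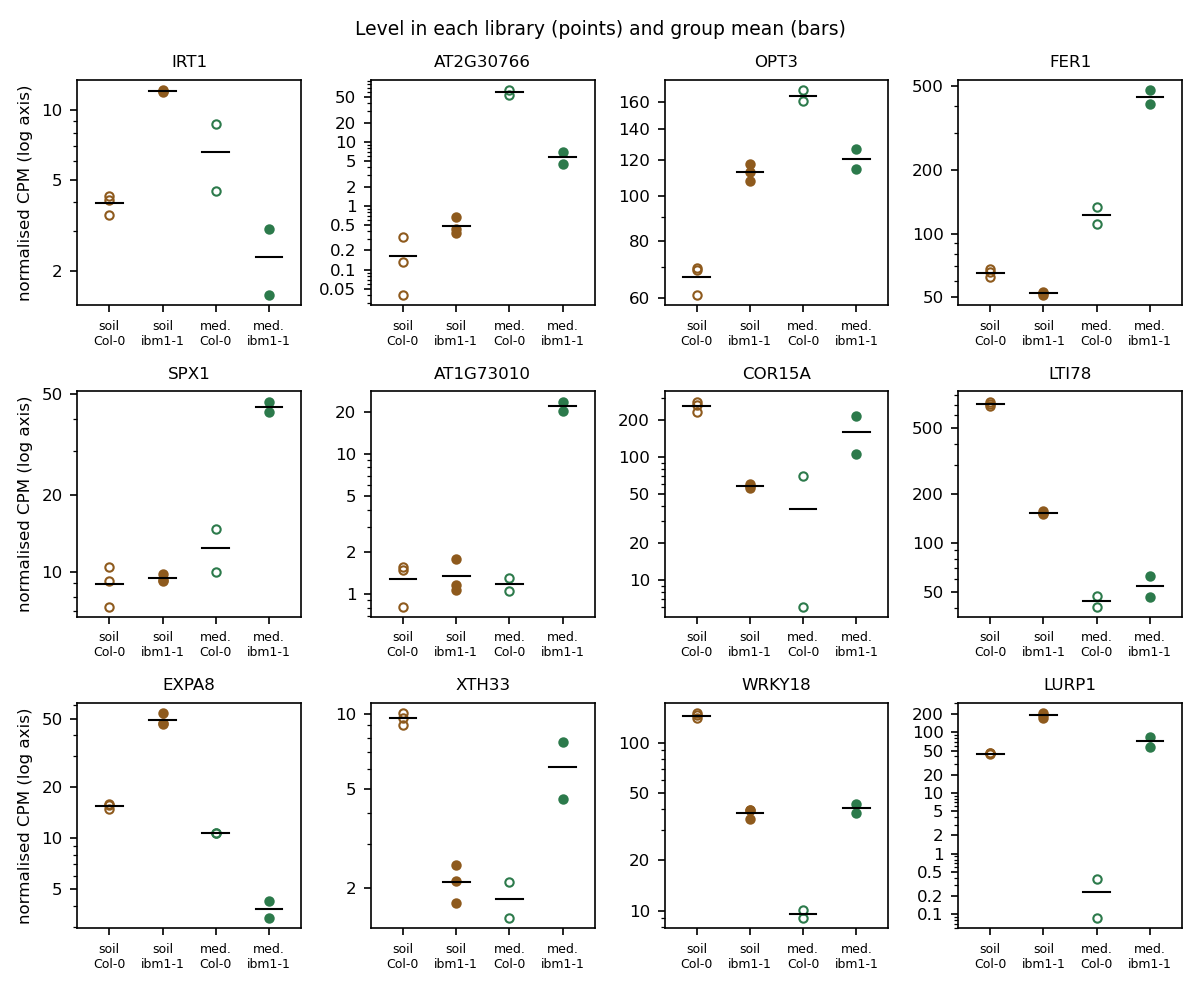
Level of 12 genes in each of the 10 libraries (CPM, log axis), with soil Col-0, soil ibm1-1, medium Col-0 and medium ibm1-1 side by side and 1 point per library. IRT1, AT2G30766 and OPT3 were below Col-0 in medium ibm1-1 while FER1, SPX1, AT1G73010, WRKY18 and LURP1 were above Col-0 there, and COR15A, LTI78, XTH33 and WRKY18 fell in soil ibm1-1.

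Phosphate shortage sets off high-affinity transporters, phosphatases and the replacement of membrane phospholipids by galactolipids and sulfolipids. Of the 10 phosphate starvation genes tested, 2 rose in soil and 7 rose in medium, and none fell in either. AT1G73010 (chromosome 1, 27464528 to 27466348), annotated as an inorganic pyrophosphatase, had 1.56, 0.814 and 1.49 CPM in soil Col-0 and 1.15, 1.07 and 1.78 in soil ibm1-1, and 1.06 and 1.30 in medium Col-0 and 23.5 and 20.2 in medium ibm1-1. All 8 other libraries were below 2 CPM while both medium ibm1-1 libraries exceeded 20, and the difference was -4.15 ± 0.50 (limma, adjusted p = 4.54e-06). SPX1 (AT5G20150, chromosome 5, 6802282 to 6803655), a phosphate sensor of the SPX family, had 7.30, 9.23 and 10.4 CPM in soil Col-0 and 9.21, 9.81 and 9.26 in soil ibm1-1, and 10.0 and 14.7 in medium Col-0 and 46.7 and 42.6 in medium ibm1-1. The soil groups overlapped, the medium groups were far apart, and the difference was -1.79 ± 0.21 (limma, adjusted p = 2.87e-06).

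Lipid remodelling genes shared this pattern. The monogalactosyldiacylglycerol synthase gene MGD2 (AT5G20410, chromosome 5, 6896463 to 6898783) had 11.03, 12.4 and 10.7 CPM in soil Col-0 and 6.70, 5.97 and 7.30 in soil ibm1-1, and 3.55 and 3.65 in medium Col-0 and 8.30 and 7.35 in medium ibm1-1. It was lower in every soil ibm1-1 library and higher in both medium ibm1-1 libraries, with a difference of -1.87 ± 0.27 (limma, adjusted p = 3.84e-05). MGDC (AT2G11810), a second galactolipid synthase gene of the response, gave -3.83. The purple acid phosphatase gene PAP17 (AT3G17790) rose in both experiments, from a mean of 2.89 to 6.38 CPM in soil and from 12.7 to 60.9 CPM in medium, and the transporter gene PHT1;4 (AT2G38940) rose in medium alone. Their differences were -1.16 and -1.19. The main transporter gene PHT1;1 (AT5G43350) did not follow, with a difference of 0.26 ± 0.13 (limma, adjusted p = 0.179), and its sequence is nearly identical to AT5G43370, so that reads may be split between them. AT5G03545 (chromosome 5, 894582 to 895517), annotated as a protein expressed in response to phosphate starvation but not on the list, had 5.54, 5.92 and 4.74 CPM in soil Col-0 and 0.682, 0.742 and 1.16 in soil ibm1-1, and 3.55 and 2.35 in medium Col-0 and 16.3 and 13.5 in medium ibm1-1. Both its fall in soil and its rise in medium passed, and its difference was -5.03 ± 0.36 (limma, adjusted p = 3.77e-09). The P1BS element GNATATNC, which PHR1 factors bind, was searched on both strands of the 250 bases before each gene start of the RefSeq TAIR10.1 annotation. It was found in 2 of 10 windows of the list and in 5.40% of 20107 windows overall. The window of AT1G73010, the gene with the largest difference on the phosphate list, is shown with the motif in capitals.
AT1G73010 (chr1:27466349-27466598, reverse strand): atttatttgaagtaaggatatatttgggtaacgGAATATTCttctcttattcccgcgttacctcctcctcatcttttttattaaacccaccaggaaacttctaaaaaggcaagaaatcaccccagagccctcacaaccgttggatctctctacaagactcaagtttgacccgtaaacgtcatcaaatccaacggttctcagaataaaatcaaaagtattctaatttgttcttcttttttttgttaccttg

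Sugar, sulfur and nitrate lists were counted in the same way. Of the 6 sugar starvation genes, 2 fell in soil and 1 rose in medium, and 4 were lower in the difference. DIN10 (AT5G20250, chromosome 5, 6833564 to 6836862), a raffinose synthase family gene that rises in darkness, had 933, 895 and 916 CPM in soil Col-0 and 345, 354 and 351 in soil ibm1-1, and 209 and 349 in medium Col-0 and 328 and 324 in medium ibm1-1. It fell in every soil ibm1-1 library, while the medium ibm1-1 libraries lay inside the wide range of medium Col-0, and the difference was -1.67 ± 0.15 (limma, adjusted p = 7.48e-08). GDH2 (AT5G07440), glutamate dehydrogenase 2, rose in medium alone and gave -1.31. ASN1 (AT3G47340), the dark-induced asparagine synthetase, had 1.44 and 11.9 CPM in medium Col-0 and 7.199 and 17.5 in medium ibm1-1, and its difference of -1.89 was -0.422 without medium Col-0 replicate 1, -3.45 without medium Col-0 replicate 2 and -1.27 without medium ibm1-1 replicate 2. ASN1 did not pass with edgeR (-1.35) or DESeq2 (-1.40), and each of these tests counted 3 of the 6 sugar genes as lower. BGAL4 (AT5G56870) also left the threshold without medium Col-0 replicate 1 (-0.946), so that 2 of the 4 sugar genes remained counted then. Sulfur deficiency genes rose in both experiments (7 of 10 in soil and 4 in medium), and only AT1G04770 was counted, at 1.01, a call lost in 4 of the fits that left out 1 library (0.914 to 0.968). In the nitrate list LBD37 (AT5G67420) and NRT2:1 (AT1G08090) were higher by 1.06 and 1.203, and both were lost without medium ibm1-1 replicate 2 (0.983 and 0.647). LBD37 also left the threshold without medium Col-0 replicate 1 (0.969), and NRT2:1 without soil Col-0 replicate 3 (1.02).

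Cold and abscisic acid induce a set of hydrophilic protective proteins, of which COR15A protects chloroplast membranes and the dehydrins COR47, ERD10 and LTI30 protect proteins and membranes from drying. In soil 8 of the 13 genes of this list fell in ibm1-1 and 2 rose, and in medium none changed. LTI78 (AT5G52310, chromosome 5, 21240717 to 21243644), also known as RD29A, had 728, 681 and 708 CPM in soil Col-0 and 151, 149 and 156 in soil ibm1-1, and 47.1 and 40.8 in medium Col-0 and 62.9 and 46.5 in medium ibm1-1. The soil groups were far apart, the medium groups overlapped, and the difference was -2.51 ± 0.14 (limma, adjusted p = 8.87e-11). COR47 (AT1G20440, chromosome 1, 7084409 to 7086873) had 937, 966 and 939 CPM in soil Col-0 and 209, 196 and 203 in soil ibm1-1, and 426 and 414 in medium Col-0 and 361 and 336 in medium ibm1-1. Its fall in soil passed, its medium ibm1-1 libraries were only slightly lower, and the difference was -1.94 ± 0.09 (limma, adjusted p = 9.49e-12). ERD10 (AT1G20450) and LTI30 (AT3G50970) also fell in soil alone and gave -1.39 and -1.46.

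COR15A had the largest difference of the list, and its size moved with the medium Col-0 library left out. COR15A (AT2G42540, chromosome 2, 17710441 to 17712330) had 234, 264 and 281 CPM in soil Col-0 and 58.0, 55.6 and 60.4 in soil ibm1-1, and 69.6 and 6.09 in medium Col-0 and 215 and 106 in medium ibm1-1. It fell in all soil ibm1-1 libraries, whereas the medium Col-0 libraries stood far apart and both medium ibm1-1 libraries were above them. The difference was -5.06 ± 0.57 (limma, adjusted p = 1.63e-06), and it was -3.29 without medium Col-0 replicate 2 and -6.80 without medium Col-0 replicate 1. COR15B (AT2G42530) had 92.7 and 16.8 CPM in medium Col-0 and 120.2 and 49.2 in medium ibm1-1, and its difference of -2.51 became -1.29 without medium Col-0 replicate 2 and left the threshold with DESeq2 (-2.19). KIN2 (AT5G15970) gave -1.44 and left the threshold without medium Col-0 replicate 2 (-0.800) and without medium ibm1-1 replicate 1 (-0.984), and with DESeq2 (-1.37).

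The CBF genes, whose AP2/ERF factors bind the CRT/DRE element of these targets, did not move with them. DREB1A (AT4G25480, chromosome 4, 13018010 to 13019400), also known as CBF3, had 4.49, 4.89 and 4.96 CPM in soil Col-0 and 10.5, 10.8 and 10.3 in soil ibm1-1, and 0.384 and 0.261 in medium Col-0 and 0.100 and 0.210 in medium ibm1-1. It rose in soil while its targets fell, and its difference of 2.12 ± 0.75 (limma, adjusted p = 0.0556) missed the threshold as tested here and passed it in 8 of the alternatives. CBF1 (AT4G25490) and CBF2 (AT4G25470) had 1.98 (adjusted p = 0.288) and 0.36 (adjusted p = 0.84), all with under 0.5 CPM in every medium library. The value of CBF1 was 0.525 without medium ibm1-1 replicate 1 and 3.40 without medium ibm1-1 replicate 2, and that of CBF2 turned to -0.05 without medium ibm1-1 replicate 2. The CRT/DRE core CCGAC was found on either strand in 4 of 13 windows of the list and in 12.8% of all windows. The windows of COR15A and LTI78, the pair with the largest differences, are given with the core, or its complement GTCGG, in capitals. A match is only a match of letters and was not tested for binding.
COR15A (chr2:17712331-17712580, reverse strand): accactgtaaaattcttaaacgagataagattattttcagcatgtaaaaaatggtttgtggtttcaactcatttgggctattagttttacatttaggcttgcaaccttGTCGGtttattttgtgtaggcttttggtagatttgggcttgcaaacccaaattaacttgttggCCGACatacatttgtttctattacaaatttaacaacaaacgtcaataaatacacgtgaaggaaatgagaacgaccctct
LTI78 (chr5:21240467-21240716, forward strand): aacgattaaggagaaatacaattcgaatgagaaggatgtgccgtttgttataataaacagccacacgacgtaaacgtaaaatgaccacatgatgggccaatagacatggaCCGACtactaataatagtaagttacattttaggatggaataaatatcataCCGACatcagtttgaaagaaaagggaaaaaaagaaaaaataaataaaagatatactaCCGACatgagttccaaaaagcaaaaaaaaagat

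Seed storage proteins and oil body proteins are made in the maturing embryo and are normally silent in vegetative plants. All 13 genes tested of this list rose in ibm1-1 in soil, and 1 rose in medium. In soil Col-0, 10 of the 13 had no read in any of the 3 libraries. CRU3 (AT4G28520, chromosome 4, 14087556 to 14089796), a 12S cruciferin, had 0, 0 and 0 CPM in soil Col-0 and 24.1, 22.6 and 26.2 in soil ibm1-1, and 0.0480 and 0.0435 in medium Col-0 and 0.350 and 0.210 in medium ibm1-1. Reads were present in every soil ibm1-1 library and absent from every soil Col-0 library, which puts soil ibm1-1 at least 536-fold higher, against a floor of 3 counts over the 3 soil Col-0 libraries. The fitted difference was 7.92 ± 1.13 (limma, adjusted p = 3.52e-05), which depends on the prior count. The 2S albumin genes SESA1, SESA2, SESA3 and SESA4, neighbours on chromosome 4, were at least 110-, 260-, 322- and 271-fold higher in soil ibm1-1 by the same floor, with mean levels of 4.96, 11.8, 14.6 and 12.3 CPM there. All 4 stayed at or below 0.45 CPM in every medium library, and SESA1 was lost without medium ibm1-1 replicate 2 (3.32).

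The cruciferin gene CRA1 (AT5G44120, chromosome 5, 17756238 to 17758336) was one of the few with reads in all groups. It had 0.0401, 0.0543 and 0.176 CPM in soil Col-0 and 19.1, 18.6 and 21.6 in soil ibm1-1, and 0.624 and 0.522 in medium Col-0 and 0.850 and 0.262 in medium ibm1-1, and the difference was 7.84 ± 0.86 (limma, adjusted p = 1.08e-06). OLEO1 (AT4G25140, chromosome 4, 12900430 to 12901577), an oil body oleosin, had 0, 0.0543 and 0 CPM in soil Col-0 and 3.80, 4.16 and 4.65 in soil ibm1-1, and 0.528 and 0.435 in medium Col-0 and 0.100 and 0.157 in medium ibm1-1. Its medium ibm1-1 libraries were both below medium Col-0, and its difference of 8.67 ± 0.95 (limma, adjusted p = 1.13e-06) was the largest of the list but depends on the prior count, since soil Col-0 held a single read. OLEO2 (AT5G40420) had the same order with 1.58 and 0.478 CPM in medium Col-0 and 0.350 and 0.315 in medium ibm1-1. OLEO4 (AT3G27660) rose in both experiments and was not counted (0.66 ± 0.56, limma, adjusted p = 0.478). With genes at 0 set to the floor, the median of the list was 6.58. Only 7 of the 12 were counted by edgeR on the same contrast, 2 with a filter at a mean of 5 CPM over all libraries and 0 with a filter at a mean of 1 CPM in each experiment, and leaving out a library kept 11 or 12 of them. The RY element CATGCA, bound by the B3 factors of seed maturation, was found on either strand in 12 of the 13 windows (92.3%) and in 7.61% of all windows. The windows of OLEO1 and CRU3 hold 3 and 1 copies, in capitals (CATGCA or its complement TGCATG).
OLEO1 (chr4:12900180-12900429, forward strand): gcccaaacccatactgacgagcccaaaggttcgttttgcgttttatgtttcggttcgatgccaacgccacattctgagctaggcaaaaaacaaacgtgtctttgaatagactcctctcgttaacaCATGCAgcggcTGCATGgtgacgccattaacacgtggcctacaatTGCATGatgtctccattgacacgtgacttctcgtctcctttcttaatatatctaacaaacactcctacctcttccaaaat
CRU3 (chr4:14087306-14087555, forward strand): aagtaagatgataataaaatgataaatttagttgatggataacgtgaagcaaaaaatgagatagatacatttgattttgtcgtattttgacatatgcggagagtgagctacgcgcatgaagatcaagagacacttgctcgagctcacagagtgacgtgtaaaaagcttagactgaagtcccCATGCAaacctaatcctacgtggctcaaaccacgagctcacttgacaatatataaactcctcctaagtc

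Gene families defined by the annotated product were described in the same way, where at least 10 members were tested and the share counted was among the 8 largest on either side. Of 79 such families 15 were described, and 7 of the 79 had no counted member. The highest shares on the higher side were those of the lipid transfer and 2S albumin superfamily (20 of 72, 27.8%), the pectin lyases and polygalacturonases (14 of 53, 26.4%) and the expansins (5 of 23, 21.7%). The highest on the lower side were the xyloglucan endotransglucosylases (8 of 26, 30.8%). These families were picked for their shares, which are a description.

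**Figure D4:**
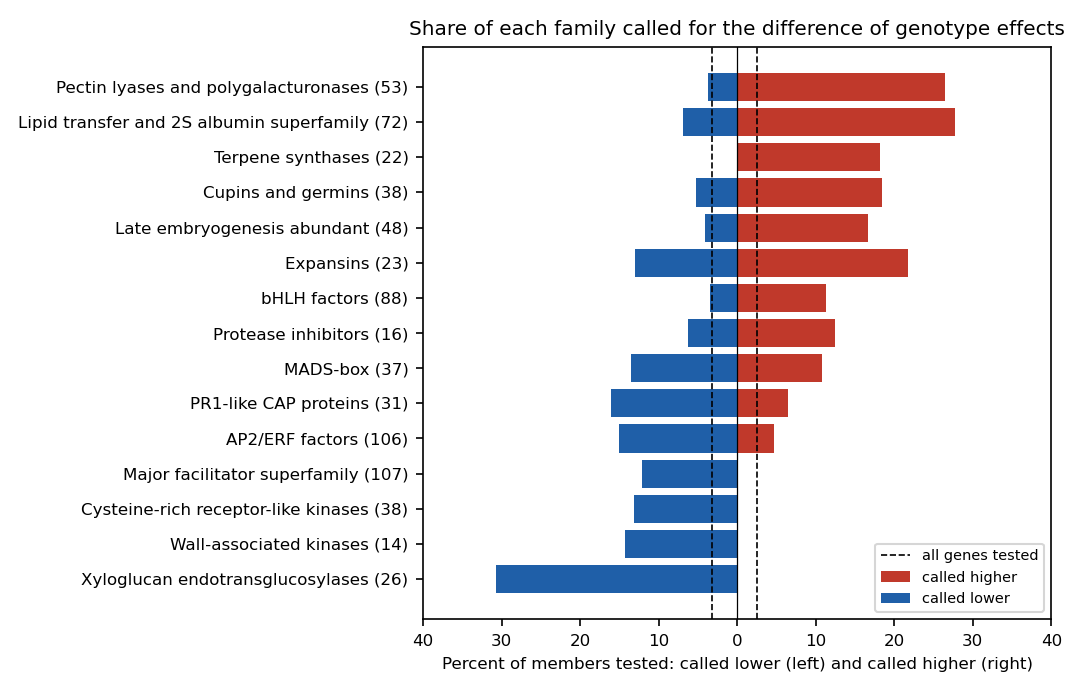
Percent of tested members counted as higher (right) and lower (left) for the described families, with the percent over all genes tested as dashed lines (2.53% higher and 3.19% lower). The lipid transfer and 2S albumin superfamily reaches 27.8% on the higher side and the xyloglucan endotransglucosylases 30.8% on the lower side.

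Growing cell walls are loosened by expansins, cut and rejoined at their xyloglucans by XTH enzymes, and softened or degraded at their pectins by pectate lyases and polygalacturonases. Of the 26 XTH genes, 0 were higher and 8 lower, with a median of -0.66. In soil 6 members fell and none rose, and in medium 4 rose and 1 fell. XTH33 (AT1G10550, chromosome 1, 3479066 to 3481041) had 10.0, 9.61 and 9.04 CPM in soil Col-0 and 2.47, 2.14 and 1.74 in soil ibm1-1, and 2.11 and 1.52 in medium Col-0 and 7.70 and 4.57 in medium ibm1-1. Every soil ibm1-1 library was below Col-0 and both medium ibm1-1 libraries were above it, and the difference was -3.87 ± 0.42 (limma, adjusted p = 8.58e-07). XTH25 (AT5G57550, chromosome 5, 23304782 to 23306440) had 12.9, 11.3 and 12.5 CPM in soil Col-0 and 2.18, 2.27 and 2.53 in soil ibm1-1, and 0 and 0.0869 in medium Col-0 and 0.150 and 0.525 in medium ibm1-1. It fell in soil and was near 0 in medium Col-0, so that its difference of -4.99 ± 1.15 (limma, adjusted p = 0.00391) depends on the prior count. XTH24 had group means of 141 CPM in soil Col-0, 78.7 in soil ibm1-1, 34.4 in medium Col-0 and 158 in medium ibm1-1, and the abundant XTH9 had 494, 263, 183 and 212. Their differences were -3.13 and -1.13. TCH4 (AT5G57560), which is also a touch gene, fell from 468 to 53.2 CPM in soil and rose from 12.3 to 25.3 CPM in medium.

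Most counted alpha-expansins went the opposite way. EXPA8 (AT2G40610, chromosome 2, 16948791 to 16950705) had 15.6, 15.8 and 14.7 CPM in soil Col-0 and 46.3, 53.7 and 47.2 in soil ibm1-1, and 10.7 and 10.6 in medium Col-0 and 3.40 and 4.25 in medium ibm1-1. Soil ibm1-1 was above and medium ibm1-1 below every matching Col-0 library, both past the test, and the difference was 3.14 ± 0.25 (limma, adjusted p = 1.35e-08). EXPA1 (AT1G69530, chromosome 1, 26141726 to 26143538) had 82.1, 89.0 and 82.8 CPM in soil Col-0 and 235, 250.3 and 225 in soil ibm1-1, and 271 and 241 in medium Col-0 and 121 and 138 in medium ibm1-1. It rose in soil and was lower in both medium ibm1-1 libraries, with a difference of 2.46 ± 0.11 (limma, adjusted p = 5.05e-12). EXPA15, EXPA4 and EXPB1 were also higher (1.82, 1.13 and 1.55), whereas EXPA16 (-1.54) and the expansin-like genes EXLA1 (-3.27, also on the touch list) and EXLA2 (-1.98) were lower. Among pectin genes, AT1G10640 (chromosome 1, 3515182 to 3518035), a pectin lyase-like gene that overlaps the antisense locus AT1G04807, had 16.7, 16.3 and 14.3 CPM in soil Col-0 and 15.1, 16.7 and 15.8 in soil ibm1-1, and 20.1 and 21.7 in medium Col-0 and 5.35 and 5.51 in medium ibm1-1. The soil groups overlapped and the medium ibm1-1 libraries were both below Col-0, with a difference of 1.94 ± 0.20 (limma, adjusted p = 4.05e-07). The abundant pectate lyase gene AT4G24780 had group means of 101 and 167 CPM in soil Col-0 and ibm1-1 and 161 and 107 CPM in medium, a difference of 1.32. The 14 higher pectin genes ranged from 1.07 to 1.94. PGIP2 (AT5G06870), which encodes an inhibitor of fungal polygalacturonases and entered the family by its annotated name, went the other way with -2.19. It fell in soil and rose in medium.

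**Figure D5:**
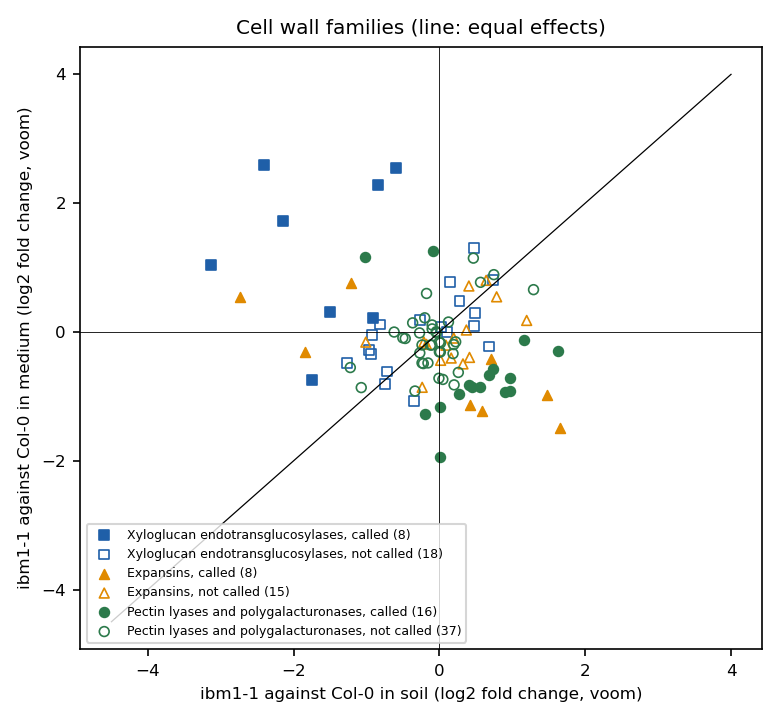
Log2 change from Col-0 to ibm1-1 in soil (horizontal axis) and in medium (vertical axis) for each tested member of the families shown. These are the XTH (26 genes), expansin (23) and pectin lyase and polygalacturonase (53) families. XTH members lie mostly above the diagonal (8 lower, 0 higher) and pectin members more often below it (14 higher, 2 lower).

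Lipid transfer proteins are small secreted proteins with a fold that holds lipids, and they share a superfamily with the 2S albumins. Of the 20 higher members 5 were 2S albumins of the seed list. Of the others, 6 lay together on chromosome 4. AT4G22485, AT4G22490, AT4G22505, AT4G22513 and AT4G22517 were 5 neighbouring tested genes between 11844506 and 11857362, all higher, and the nearby AT4G22520 was higher too. AT4G22485 (chromosome 4, 11844506 to 11846476) had 6.82, 5.59 and 5.09 CPM in soil Col-0 and 33.8, 30.8 and 32.5 in soil ibm1-1, and 165 and 178 in medium Col-0 and 44.4 and 68.1 in medium ibm1-1. Its mRNA thus rose in soil and fell in medium, with a difference of 4.13 ± 0.20 (limma, adjusted p = 1.08e-11). AT4G22505 showed the same pattern, with group means of 8.77 and 28.3 CPM in soil and 137 and 36.7 CPM in medium, and a difference of 3.61. AT4G22490, AT4G22513, AT4G22517 and AT4G22520 gave 2.26, 2.58, 3.03 and 2.71. Of these 6 genes, 5 overlap an annotated gene on the other strand, and whether the counting used the strand is not given in the sources used here. The next gene on the other side, AT4G22470 (chromosome 4, 11840134 to 11841450), had 1.28, 0.651 and 0.746 CPM in soil Col-0 and 2.73, 3.42 and 2.49 in soil ibm1-1, and 0.816 and 0.609 in medium Col-0 and 21.1 and 33.9 in medium ibm1-1. It rose in both experiments, far more in medium, and its difference was -3.52 ± 0.73 (limma, adjusted p = 0.00158).

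Cupins, late embryogenesis abundant (LEA) proteins, terpene synthases and bHLH factors had more higher than lower members. Their median differences were 0.08, -0.07, 0.004 and 0.19 in that order, against 0.01 over all genes tested. With a filter at a mean of 5 CPM, 2, 4, 2 and 4 members were counted as higher. Of 38 cupins and germins 7 were higher and 2 lower, and 3 of the 7 were seed storage genes. AT5G39190 (chromosome 5, 15692542 to 15693735), a germin-like gene nearly identical to AT5G39130 and AT5G39160, had 1.69, 1.68 and 1.76 CPM in soil Col-0 and 5.33, 6.14 and 6.27 in soil ibm1-1, and 4.46 and 6.09 in medium Col-0 and 1.6 and 1.36 in medium ibm1-1. The gene rose in soil and fell in medium, with a difference of 3.55 ± 0.36 (limma, adjusted p = 3.74e-07). Of 48 LEA family genes 8 were higher and 2 lower, and the lower count was 5 without medium Col-0 replicate 1. Most of the higher LEA genes were much more abundant in medium, such as AT1G54890 with 0.0802, 0.271 and 0.132 CPM in soil Col-0 and 1.11, 0.906 and 0.996 in soil ibm1-1, and 9.22 and 8.08 in medium Col-0 and 8.50 and 9.97 in medium ibm1-1. Its soil rise started from under 0.3 CPM and its medium groups overlapped (2.56 ± 0.43, limma, adjusted p = 1.89e-04). Of 22 terpene synthases 4 were higher and 0 lower, and 1 was lower without soil Col-0 replicate 3 or without either medium Col-0 replicate. AT1G31950 and AT1G33750 fell in medium and gave 1.43 and 1.36. Of 88 bHLH genes 10 were higher and 3 lower, the latter led by AT1G10585 (chromosome 1, 3493770 to 3495244). This gene had 2.33, 1.95 and 1.54 CPM in soil Col-0 and 0.341, 0.288 and 0.208 in soil ibm1-1, and 3.79 and 1.09 in medium Col-0 and 14.7 and 16.2 in medium ibm1-1, fell in soil, rose in medium, and differed by -5.60 ± 0.51 (limma, adjusted p = 1.07e-07). Among the higher bHLH genes were GL3, a trichome and flavonoid regulator (2.02), HFR1, a factor of shade and light signalling (1.78), and HEC1 (1.48). PRE1 (AT5G39860) gave 1.98 and was lost without soil Col-0 replicate 1 (1.90) or medium ibm1-1 replicate 1 (1.28) and with the replicate block (1.85).

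Rapid stress genes are switched on within minutes by wounding, cold, elicitors or handling. Of the 20 on the list, 7 rose and 2 fell in soil and 12 rose in medium, and 9 were lower in the difference. WRKY18 (AT4G31800, chromosome 4, 15382777 to 15385100), a WRKY factor of pathogen responses, had 139, 146 and 149 CPM in soil Col-0 and 39.9, 35.0 and 39.6 in soil ibm1-1, and 9.02 and 10.0 in medium Col-0 and 43.3 and 37.9 in medium ibm1-1. WRKY18 fell in soil and rose in medium, with the largest difference of the list at -4.00 ± 0.18 (limma, adjusted p = 3.22e-12). ERF-1 (AT4G17500, chromosome 4, 9759203 to 9760391) had 15.7, 15.3 and 17.6 CPM in soil Col-0 and 11.6, 11.8 and 13.4 in soil ibm1-1, and 8.02 and 7.09 in medium Col-0 and 19.8 and 25.6 in medium ibm1-1. It was lower in every soil ibm1-1 library and rose in medium, with a difference of -1.99 ± 0.22 (limma, adjusted p = 1.07e-06). STZ (AT1G27730), CAF1a (AT3G44260) and ERF11 (AT1G28370) rose in medium alone and gave -1.55, -1.55 and -2.25. RRTF1 (AT4G34410) fell in soil and gave -2.91. WRKY40 (AT1G80840) gave -1.27 and -0.895 without medium Col-0 replicate 2. The W-box core TTGAC, which WRKY factors bind, was found in 14 of 20 windows of the list and 45.0% of all windows, and CGCGTT in 0 of 20 and 2.80%.

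The AP2/ERF family, to which ERF-1 belongs, had 16 of 106 members lower and 5 higher. ERF2 (AT5G47220, chromosome 5, 19171643 to 19172956) had 71.4, 71.2 and 71.2 CPM in soil Col-0 and 33.0, 34.9 and 32.4 in soil ibm1-1, and 2.59 and 2.39 in medium Col-0 and 13.0 and 16.3 in medium ibm1-1. It fell in soil and rose in medium, and differed by -3.64 ± 0.28 (limma, adjusted p = 8.29e-09). DREB26 (AT1G21910, chromosome 1, 7696427 to 7697831) had 34.0, 31.0 and 32.9 CPM in soil Col-0 and 5.76, 4.90 and 4.98 in soil ibm1-1, and 3.50 and 3.30 in medium Col-0 and 7.15 and 6.04 in medium ibm1-1. It fell in soil and did not pass in medium, although both ibm1-1 libraries were above Col-0, with a difference of -3.57 ± 0.27 (limma, adjusted p = 9.35e-09). ORA59 (AT1G06160), which integrates jasmonate and ethylene signals, fell in soil and rose in medium and gave -3.11. It was not on the set-aside jasmonate list. The highly expressed AT5G61590 had group means of 315 and 115 CPM in soil and 40.5 and 42.3 CPM in medium, a difference of -1.66. On the higher side ERF53 had group means of 1.23 and 3.25 CPM in soil and 2.19 and 0.285 CPM in medium, a difference of 4.30.

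Of 107 major facilitator superfamily genes 13 were lower and 0 higher. AT5G14120 (chromosome 5, 4555821 to 4558710) had 588, 598 and 584 CPM in soil Col-0 and 255, 256 and 261 in soil ibm1-1, and 84.5 and 89.2 in medium Col-0 and 183 and 176 in medium ibm1-1. The gene fell in soil and rose in medium, with a difference of -2.24 ± 0.09 (limma, adjusted p = 1.22e-12). The gene overlaps AT5G02155 and AT5G14130 on the other strand. AT2G28120 and AT5G18840 rose in medium alone (-2.83 and -2.43). The sugar transporter gene ERD6 and the glucosinolate transporter gene GTR1 had group means that dropped in soil, from 338 to 162 CPM and from 148 to 73.1 CPM, and were close together in medium (190 and 209, and 86.7 and 91.2 CPM). Their differences were -1.20 and -1.08. Of 38 cysteine-rich receptor-like kinases 15 rose in soil and 20 rose in medium, and 5 were lower and 0 higher. CRK5 (AT4G23130, chromosome 4, 12117491 to 12120220) had 4.45, 4.94 and 5.66 CPM in soil Col-0 and 18.3, 14.8 and 15.7 in soil ibm1-1, and 0.144 and 0.130 in medium Col-0 and 6.70 and 5.46 in medium ibm1-1, rose in both experiments, and differed by -3.53 ± 0.85 (limma, adjusted p = 0.00562). CRK21 (AT4G23290) rose in medium alone, from 8.35 and 6.87 to 28.2 and 30.5 CPM, and gave -1.99. Without medium ibm1-1 replicate 1, 3 of the 5 kinases and neither of the 2 counted wall-associated kinases, WAK2 (-0.813) and WAKL2 (-1.17), remained counted.

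Salicylic acid genes rose in both experiments (15 of 20 in soil and 11 in medium), and their differences split. PR1 (AT2G14610, chromosome 2, 6241640 to 6242541), a marker of the response, had 2.97, 1.79 and 2.02 CPM in soil Col-0 and 43.7, 42.1 and 44.0 in soil ibm1-1, and 0.0480 and 0.0869 in medium Col-0 and 39.1 and 33.8 in medium ibm1-1. It rose in both, but medium Col-0 was nearly at 0, so that the difference of -4.41 ± 0.94 (limma, adjusted p = 0.00201) depends on the prior count. WRKY70 (AT3G56400, chromosome 3, 20908711 to 20910623) had 74.8, 74.3 and 73.0 CPM in soil Col-0 and 111, 114 and 107 in soil ibm1-1, and 3.79 and 4.26 in medium Col-0 and 17.6 and 16.6 in medium ibm1-1. It was higher in every soil ibm1-1 library without passing there, rose in medium, and differed by -1.50 ± 0.21 (limma, adjusted p = 2.85e-05). SARD1 (AT1G73805), a factor that drives salicylic acid synthesis, rose in both and gave -1.53. In contrast AT4G10500 (chromosome 4, 6491017 to 6492578), annotated as DMR6-LIKE OXYGENASE 1, an enzyme that hydroxylates salicylic acid, had 1.52, 0.706 and 0.834 CPM in soil Col-0 and 16.6, 18.9 and 17.6 in soil ibm1-1, and 0.816 and 0.956 in medium Col-0 and 1.55 and 2.31 in medium ibm1-1. It rose in soil and not in medium, and its difference was 3.06 ± 0.57 (limma, adjusted p = 6.23e-04). WRKY38 (AT5G22570) followed with 0.722, 0.814 and 0.921 CPM in soil Col-0 and 13.4, 12.6 and 12.6 in soil ibm1-1 and under 1.1 CPM in every medium library (2.55).

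Of 16 protease inhibitors 2 were higher and 1 lower, or 3 lower without medium Col-0 replicate 1. PR1-like CAP proteins had 5 of 31 members lower and 2 higher, or 5 higher without medium Col-0 replicate 2. AT4G33720 (chromosome 4, 16182743 to 16183619) had 27.8, 32.8 and 26.6 CPM in soil Col-0 and 55.9, 56.4 and 53.2 in soil ibm1-1, and 1.34 and 4.87 in medium Col-0 and 85.2 and 102 in medium ibm1-1. It did not pass in soil and rose in medium from a low level, with a difference of -4.21 ± 0.40 (limma, adjusted p = 1.60e-07). Camalexin and indole glucosinolates are sulfur-containing defense compounds made from tryptophan. In the camalexin list 3 of 9 genes were lower and none higher, or 2 higher without medium Col-0 replicate 2. GSTF6 (AT1G02930, chromosome 1, 661088 to 662475) had 40.1, 41.3 and 39.7 CPM in soil Col-0 and 147, 140.3 and 145 in soil ibm1-1, and 50.5 and 28.7 in medium Col-0 and 438 and 539.8 in medium ibm1-1, rose in both experiments and differed by -1.83 ± 0.17 (limma, adjusted p = 1.59e-07). CYP71A12 (AT2G30750) also rose in both and gave -2.26. GGP1 (AT4G30530) gave -1.14 and -0.854 without medium Col-0 replicate 2. In the indole glucosinolate list 3 of 10 genes were lower: the P450 genes CYP81F2 (-2.42) and CYP83B1 (-1.48) and the regulator MYB51 (-1.35), all of which rose in medium alone. CYP81F2 (AT5G57220, chromosome 5, 23187840 to 23189902) had 26.2, 26.1 and 25.6 CPM in soil Col-0 and 28.2, 27.3 and 28.6 in soil ibm1-1, and 3.50 and 1.78 in medium Col-0 and 13.8 and 15.2 in medium ibm1-1, so that its soil groups lay close together and its medium groups did not.

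Of the MADS-box repressors of flowering MAF5, MAF4 and FLC were counted as higher. MAF5 (AT5G65080, chromosome 5, 25997504 to 26002619) had 1.36, 1.68 and 1.54 CPM in soil Col-0 and 9.09, 7.91 and 7.72 in soil ibm1-1, and 4.99 and 4.22 in medium Col-0 and 3.25 and 3.31 in medium ibm1-1. It rose in soil and was lower in medium ibm1-1 without passing, with a difference of 2.92 ± 0.31 (limma, adjusted p = 8.24e-07). MAF4 (AT5G65070) gave 1.66, and FLC (AT5G10140) gave 1.24 and 0.886 without medium Col-0 replicate 2. SEP3 (AT1G24260, chromosome 1, 8593536 to 8596123), a floral organ gene, had 2.17, 2.39 and 2.81 CPM in soil Col-0 and 2.09, 2.27 and 2.86 in soil ibm1-1, and 1.25 and 1.35 in medium Col-0 and 6.45 and 6.35 in medium ibm1-1. It did not pass in soil and rose in medium (-2.34 ± 0.41, limma, adjusted p = 2.88e-04). The summed floral markers given above were also higher in medium ibm1-1 than in medium Col-0, but SEP3 is a member of that sum. SEP3 made most of it in medium ibm1-1, 6.45 and 6.35 CPM of 7.25 to 7.45, so the sum is not a separate observation. AP1 (AT1G69120) fell in soil from about 2 CPM to nearly 0 and gave -5.80, which depends on the prior count and was lost without medium ibm1-1 replicate 1 (-4.43). Of the 37 MADS-box genes tested 4 were higher and 5 lower, or 8 lower without medium Col-0 replicate 2.

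In the clock list 1 of 13 was lower. PCL1 (AT3G46640, chromosome 3, 17183042 to 17186959), an evening gene also known as LUX, had 97.8, 104 and 102 CPM in soil Col-0 and 41.7, 42.3 and 46.8 in soil ibm1-1, and 37.2 and 33.0 in medium Col-0 and 36.0 and 34.0 in medium ibm1-1, with a difference of -1.22 ± 0.13 (limma, adjusted p = 4.95e-07). DWF4 (AT3G50660), an enzyme of brassinosteroid synthesis, gave -1.04 and left the threshold without soil Col-0 replicate 3, medium Col-0 replicate 2 or medium ibm1-1 replicate 1 (-0.975 to -0.840). The flavonoid genes TT4 (AT5G13930) and TT5 (AT3G55120) gave 1.12 and 1.04 and were both lost without medium Col-0 replicate 1 (0.914 and 0.795) or medium ibm1-1 replicate 2 (0.855 and 0.853), and TT5 without soil ibm1-1 replicate 3 (0.997). Without medium Col-0 replicate 1, 5 flavonoid genes were lower. Of the 11 stomatal lineage genes all had a positive difference (median 0.73) and 3 fell in medium. EPF1 alone was counted (1.28, limma, adjusted p = 0.0498), and it kept the call in only 8 of the 21 alternatives that tested it. The call was lost in 7 of the 10 fits that left out a library and with the replicate block (1.26). It was also lost with DESeq2 size factors, TMM within each experiment, quantile normalization, the DESeq2 test and a shared quality weight per experiment. Without medium Col-0 replicate 1, 3 stomatal genes were counted as higher. The summed stomatal markers, EPF1 among them, were likewise lower in medium ibm1-1 than in medium Col-0, as given above.

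Among genes with a mean of at least 5 CPM in a group, the largest positive differences outside the seed and iron lists belonged to little-studied loci. AT2G15810 (chromosome 2, 6882821 to 6886775), annotated as a pseudogene, had 0.642, 0.597 and 0.834 CPM in soil Col-0 and 35.0, 36.8 and 32.9 in soil ibm1-1, and 0 and 0.0435 in medium Col-0 and 0.04999 and 0 in medium ibm1-1. It and its neighbours AT2G15800 and SQN (AT2G15790) were all higher, and AT2G15800 lies antisense to SQN. Both pseudogenes were nearly at 0 in medium, so the sizes of their differences, 5.43 and 5.07, depend on the prior count. AT2G15800 was lost without medium Col-0 replicate 1 (4.17) or medium ibm1-1 replicate 1 (4.23). With edgeR on the same contrast neither AT2G15810 (5.50) nor AT2G15800 (5.16) passed, and AT2G15800 did not pass with DESeq2 (5.14). AT1G52130 (chromosome 1, 19400510 to 19402789), a mannose-binding lectin gene, had 0, 0 and 0.0878 CPM in soil Col-0 and 8.45, 7.25 and 7.06 in soil ibm1-1, and 0.0960 and 0.0435 in medium Col-0 and 0.450 and 0.525 in medium ibm1-1. The rise in soil started from almost no reads (5.05 ± 1.16, limma, adjusted p = 0.00372). AT3G28915 (chromosome 3, 10917551 to 10922630), annotated as a pseudogene, had 0.0401, 0.271 and 0.439 CPM in soil Col-0 and 10.5, 10.2 and 9.59 in soil ibm1-1, and 0.0480 and 0.0869 in medium Col-0 and 0 and 0.105 in medium ibm1-1, with a difference of 6.27 ± 1.58 (limma, adjusted p = 0.00768). For AT1G52130 and AT3G28915 too, the size depends on the prior count.

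By the same CPM minimum, the largest negative difference outside the touch list was that of LURP1 (AT2G14560, chromosome 2, 6213617 to 6215932), a gene first known for its induction by oomycete infection, which had 43.8, 44.9 and 45.2 CPM in soil Col-0 and 192, 206 and 174 in soil ibm1-1, and 0.384 and 0.0869 in medium Col-0 and 85.0 and 56.7 in medium ibm1-1. It rose in both experiments, but medium Col-0 was below 0.4 CPM and the difference was -6.29 ± 1.05 (limma, adjusted p = 1.95e-04). PCC1 (AT3G22231, chromosome 3, 7845823 to 7846833) had 79.9, 82.0 and 72.9 CPM in soil Col-0 and 106, 139.5 and 113 in soil ibm1-1, and 0.0960 and 0.0869 in medium Col-0 and 22.1 and 7.66 in medium ibm1-1. Its soil levels were high in both genotypes and its medium level depended on genotype (-6.28 ± 1.83, limma, adjusted p = 0.0196). The neighbouring AT3G22235 (chromosome 3, 7854419 to 7855814), nearly identical to AT3G22240, had 61.7, 59.9 and 58.1 CPM in soil Col-0 and 88.9, 122 and 104 in soil ibm1-1, and 0.816 and 0.478 in medium Col-0 and 86.7 and 51.4 in medium ibm1-1, with a difference of -5.94 ± 0.97 (limma, adjusted p = 1.65e-04). BAM5 (AT4G15210, chromosome 4, 8666334 to 8669526), a beta-amylase gene, rose in both experiments with 0.843, 0.651 and 0.965 CPM in soil Col-0 and 2.39, 2.18 and 1.58 in soil ibm1-1, and 0.624 and 0.391 in medium Col-0 and 22.8 and 62.0 in medium ibm1-1. Its medium ibm1-1 libraries were far apart and its difference was -4.88 ± 1.42 (limma, adjusted p = 0.0199). AT5G61160 (chromosome 5, 24608605 to 24610329), annotated as an acyltransferase, had 2.37, 2.33 and 2.68 CPM in soil Col-0 and 3.84, 3.25 and 2.82 in soil ibm1-1, and 1.97 and 1.26 in medium Col-0 and 36.6 and 76.8 in medium ibm1-1. It rose in medium alone, with a difference of -4.62 ± 0.77 (limma, adjusted p = 2.01e-04). AT2G38240, a 2-oxoglutarate-dependent oxygenase gene, gave -5.66 and -3.15 without medium Col-0 replicate 2.

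Genes that passed in both experiments with opposite signs were the clearest cases. At a mean of 5 CPM or more in at least 1 group there were 36, of which 14 rose in soil and fell in medium and 22 fell in soil and rose in medium. PHI-1 (AT1G35140, chromosome 1, 12851983 to 12853235), a touch-list gene, had 43.7, 46.2 and 44.7 CPM in soil Col-0 and 2.13, 2.14 and 2.78 in soil ibm1-1, and 1.63 and 1.56 in medium Col-0 and 11.3 and 4.78 in medium ibm1-1, and differed by -6.46 ± 0.52 (limma, adjusted p = 1.73e-08). CYP94C1 (AT2G27690, chromosome 2, 11809279 to 11811280), a P450 that oxidizes and so inactivates jasmonoyl-isoleucine, had 42.1, 39.4 and 42.3 CPM in soil Col-0 and 5.50, 4.28 and 5.48 in soil ibm1-1, and 1.25 and 1.04 in medium Col-0 and 3.65 and 7.35 in medium ibm1-1. CYP94C1 fell in soil and rose in medium, with a difference of -5.15 ± 0.51 (limma, adjusted p = 2.80e-07). It was not on the set-aside jasmonate list either. In the other direction AT2G15020 (chromosome 2, 6491425 to 6493512), an uncharacterized gene, had 1.00, 0.651 and 0.614 CPM in soil Col-0 and 7.17, 8.03 and 8.43 in soil ibm1-1, and 4.08 and 6.74 in medium Col-0 and 1.85 and 2.78 in medium ibm1-1. It rose in soil and fell in medium (4.57 ± 0.41, limma, adjusted p = 8.25e-08). AT5G25970 (chromosome 5, 9066278 to 9068511), annotated as a glycosyltransferase-like Core-2/I-branching protein, did the same with 0.241, 0.271 and 0.307 CPM in soil Col-0 and 1.962, 0.989 and 0.996 in soil ibm1-1, and 5.28 and 5.04 in medium Col-0 and 0.8999 and 1.68 in medium ibm1-1 and 4.25 ± 0.56 (limma, adjusted p = 1.36e-05).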

How the data were processed

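mRNA of whole plants was sequenced in 6 soil and 4 medium libraries. The deposited values are counts of reads per gene, not normalized. By the study's methods the soil reads went through SolexaQA, cutadapt, TopHat and HTSeq and the medium reads through Trimmomatic, HISAT and htseq-count, whereas the submitters' processing notes name Trimmomatic 0.36, HISAT2 2.1.0, HTSeq 0.9.1 and TAIR10 for all 10 libraries. The conflict was not settled, so processing may differ between the experiments. The strand setting of the counting is not given in the sources used here, and genes with a partner on the other strand are uncertain.

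Genes in both tables (21912) were filtered with filterByExpr, scaled by TMM and fitted with voom and sample quality weights on 4 group means (limma 3.58.1, edgeR 4.0.16, R 4.3.3). The contrast was tested over 20192 genes with Benjamini-Hochberg adjustment. Each experiment alone was tested with edgeR's quasi-likelihood test. Errors after ± are standard errors on the log2 scale. P-values measure the spread between libraries labelled as biological replicates. On simulated counts with 200 changed genes, all 100 changed 3-fold and all 100 changed 6-fold were recovered, and 1 of 201 calls was false. Recovery was summarized by fold alone. Whether it holds for genes with few counts in a group, or with replicate libraries far apart, was not tested.

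Genes were named by a rule: the 12 largest counted differences on each side with a mean of at least 5 CPM in 1 group, the 3 largest in each described list or family, the 10 largest with opposite signs, list members against their list, and IBM1. Other genes named, among them IRT1, FRO2, OPT3, the lipid transfer genes on chromosome 4 and the further expansin, XTH, bHLH and transporter genes, were chosen after their values were seen. The members and lists were chosen with earlier results of these data known. Families come from annotated products, and coordinates and promoter windows from RefSeq TAIR10.1, in which 21815 of the genes were matched. Near-identical copies were found with BLAST 2.17.0 (95% identity over 50% of the length). Same-numbered replicates did not deviate together in soil (correlations of -0.04, 0.02 and 0.02). In medium, with 2 libraries per genotype, the deviations within a group mirror each other. The medium correlation (0.162) is therefore a single value and cannot decide whether the replicates were paired. No pairing was used in the main fit. In all 22 alternatives of scaling, filter, test, design and left-out library were refitted, with DESeq2 1.42.0 among them. The 11690 genes of the medium table alone and 4 bisulfite libraries were not used for the difference.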

Additional observations from a re-analysis of the deposited data

Results flagged for a closer look

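The effect of ibm1-1 differed between soil and medium by the limma interaction test in 511 genes on the higher side and 644 on the lower side, which is why these counts stand here.

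The following genes passed in both experiments with opposite signs and in the test of the difference itself. PHI-1 differed by -6.46, AT1G10585 by -5.60, CYP94C1 by -5.15, AT5G03545 by -5.03 and TCH4 by -4.17, all falling in soil and rising in medium. AT1G47400 differed by 5.34, AT1G47395 by 4.69, AT2G15020 by 4.57, AT5G25970 by 4.25 and AT4G22485 by 4.13, all rising in soil and falling in medium.

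Of 1171 genes that only the medium table counts and that passed the filter there, 177 changed in ibm1-1 (119 higher and 58 lower). They have no soil value here, so that no difference was formed for them.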

How the results depend on the processing

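The 511 higher and 644 lower genes stayed within 1.5 times under other scalings, other tests (582 and 743 with edgeR, 542 and 727 with DESeq2) and the replicate block (545 and 698), and ranged from 492 to 626 and from 644 to 776 over the fits without 1 library. A filter at a mean of 5 CPM left 292 higher genes, because fewer genes were tested, and no fold threshold gave 1597 higher and 1994 lower genes. Same-numbered libraries share only a number, and in medium there were 2 pairs. Of 131 counted genes with names, 100 kept their call in every alternative that tested them and 31 lost it in at least 1. Over the fits without 1 library the difference of CBF2 ranged from -0.051 (without medium ibm1-1 replicate 2) to 0.772, and the difference of NAS1 from -0.099 (without medium Col-0 replicate 1) to 0.256, with -0.040 without medium ibm1-1 replicate 2. Lists with no counted gene on 1 side gained up to 5 under some alternatives, as aliphatic glucosinolate did on the higher side with no fold threshold and flavonoid on the lower side without medium Col-0 replicate 1. The cause of these moves was not tested. With 2 medium libraries per genotype, genes near 0 in medium set the limit: their sizes depend on the prior count.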

Other observations

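Neighbouring tested genes were counted in the same direction in several places besides the lipid transfer genes on chromosome 4. On chromosome 1, AT1G52050, AT1G52060 and AT1G52070 (19354919 to 19366925) and AT1G52100, AT1G52120 and AT1G52130 (19383078 to 19402789) were all higher. On chromosome 4, the purine permease genes PUP7 and PUP10 and AT4G18205 between them (10071481 to 10078261) were lower. On chromosome 5, SIGE, SQP1 and AT5G24155 (8157151 to 8181107) were higher. How often such runs would arise among unrelated genes was not tested, and neighbours of similar sequence can share reads.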
